A study of Mus musculus with 56 samples.

Results

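The collagen genes were the rows of the expression table whose gene identifier maps to a protein-coding symbol made of Col, a type number, the letter a and a chain number. The rule found 40 genes among the 25939 in the table. Of these, 10 encode chains of fibrillar collagens, 6 encode the chains of type IV collagen of basement membranes, and 24 encode other types: 7 fibril-associated chains (FACIT), 6 chains of the beaded filament type VI, 2 multiplexins (Col15a1 and Col18a1), 3 transmembrane chains, 3 short chains of types VIII and X, the anchoring fibril chain Col7a1, and Col26a1 and Col28a1. Col2a1, Col9a1, Col19a1 and Col25a1 were not analysed here. The rule used names only, so every measured value below was free of it.

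RNA was measured by poly-A RNA-seq in visceral adipose tissue (VAT) of female C57BL/6J mice aged 9 weeks, kept specific pathogen free on normal chow under 12 h of light and 12 h of dark. All mice first had food at all times for 7 days from 7 weeks of age. They were then fed for 7 days either only in daytime (DRF, daytime-restricted feeding), which is the resting phase of mice, or only at night (NRF, nighttime-restricted feeding), which served as the control. Each regimen was sampled at ZT0, ZT4, ZT8, ZT12, ZT16, ZT20 and ZT24 (zeitgeber time, hours after lights on) with 4 libraries per time point, giving 28 libraries per regimen and 56 in all. The study question was how inverted feeding moves daily gene expression, and here that question is asked of the collagens. Each library was made from 1 mouse, so no tissue was pooled, and all mice were of 1 strain and sex.

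Collagens are proteins of 3 chains wound into a triple helix. The chains are hydroxylated, glycosylated and folded in the endoplasmic reticulum, then trimmed and crosslinked outside the cell. Fibrillar collagens give tissue its tensile strength, type IV forms the sheet-like network of the basement membrane that surrounds every adipocyte and capillary, and type VI is an abundant microfilament collagen of the adipocyte surroundings. In fat, fibrillar chains come largely from stromal fibroblasts and their progenitors, and basement membrane chains also from adipocytes and endothelial cells. In whole tissue such as this, fewer cells of a type and less RNA per cell cannot be told apart.

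The libraries held 31129308 to 41199164 reads assigned to genes, with a median of 35590484. The adipose label was checked against its markers: the summed level of 8 adipocyte genes, Adipoq among them, ran from 14600 to 35300 TPM (a level per transcript length, scaled to the same total in every library) over the 56 libraries. Markers of chondrocytes were near 0, with a summed level of at most 2.12 TPM for Comp and Hapln1. Those of skeletal muscle varied widely, with sums of 11.8 to 761 TPM under DRF (median 114) and 20.7 to 985 TPM under NRF (median 73.3). The tests were not adjusted for this. DRF replicate 1 at ZT8 and DRF replicate 4 at ZT0 stood apart from all others, since markers of glandular epithelium summed to 447 and 4960 TPM in them against 4.61 to 60.6 TPM in the other 54, and their adipocyte sums were 14600 and 18700 TPM against 20600 to 35300 TPM. Of the collagens, 25 had their highest level of all libraries in DRF replicate 1 at ZT8 and 2 had it in DRF replicate 4 at ZT0. Col6a4, a type VI chain, reached 163 and 53.7 TPM in these libraries, while the other 54 had a median of 0.136 and a highest value of 2.07 TPM. Col7a1 reached 10.2 TPM and the fibril-associated Col16a1 47.2 TPM in the former library. The main counts of collagens called are given below with and without these libraries. Those of cell-type markers and of the genes that modify, trim, bind and receive collagens are given with them only.

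Promoter sequences are shown for the chains on which the results turn: Col5a3 and Col5a1, which both belong to type V collagen, and Col4a1 and Col4a2, which lie head to head. RefSeq promoter windows (build GRCm38.p6, 250 bases before to 50 after the annotated start) matched 32 of the 40 collagen genes. Capitals mark CCAAT and GGGCGG, each read on both strands (ATTGG and CCGCCC are the reverse complements). Col5a3 lies on chr9:20770050-20815067 on the minus strand, and the 250 bases before its start are chr9:20815068-20815317.
Col5a3: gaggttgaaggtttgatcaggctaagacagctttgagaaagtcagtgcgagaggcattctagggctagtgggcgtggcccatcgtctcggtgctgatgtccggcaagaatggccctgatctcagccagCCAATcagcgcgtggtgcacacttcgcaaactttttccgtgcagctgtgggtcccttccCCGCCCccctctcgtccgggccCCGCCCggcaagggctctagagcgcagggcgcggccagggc
Col5a1 lies on the plus strand of chromosome 2, and the 250 bases before its start are chr2:27886175-27886424.
Col5a1: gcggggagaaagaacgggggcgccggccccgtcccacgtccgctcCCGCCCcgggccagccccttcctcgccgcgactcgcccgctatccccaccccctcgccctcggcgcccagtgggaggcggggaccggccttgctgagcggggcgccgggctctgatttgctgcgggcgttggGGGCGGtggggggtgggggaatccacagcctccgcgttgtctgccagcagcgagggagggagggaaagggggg
Col4a1 (minus strand, chr8:11198423-11312826) and Col4a2 (plus strand, chr8:11312805-11449287) are transcribed away from each other and their annotated transcripts share 22 bases. Shown are 30 bases around the CCAAT letters upstream of each start, chr8:11312954-11312983 for Col4a1 and chr8:11312761-11312790 for Col4a2, each on its gene's own strand.
Col4a1: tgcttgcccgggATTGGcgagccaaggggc
Col4a2: ccgaggagctccCCAATttgttggcgctgc

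The Col5a3 sequence held CCAAT once and GGGCGG at 2 places, and the Col5a1 sequence held no CCAAT and GGGCGG at 2 places. Over the 32 collagen windows, GGGCGG was present in 21 (65.6%) against 35.9% of all 27025 promoter windows of the same length, and CCAAT in 11 (34.4%) against 37.9%. The E-box CACGTG, the letters bound by the CLOCK and BMAL1 pair of the clock, was in 0 of 32 collagen windows against 7.24% of all, and the D-box TTATGTAA was in 0 against 0.955%. TATAAA was in 5 windows (15.6%), among them that of Col3a1, against 14.2% of all, and the full cAMP response element TGACGTCA was in the window of Col24a1 only, against 1.88% of all. These are matches of letters in short windows and nothing more was read from them.

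The first comparison was of levels between the chains. Col4a1 had the highest mean level over the 56 libraries, 512 TPM, followed by Col3a1, the chain of fibrillar type III collagen, at 419 TPM and Col4a2 at 360 TPM. Col6a1 followed at 318 TPM, the multiplexin Col15a1 at 222 TPM and Col1a1, the major chain of type I, at 177 TPM. The type V chain Col5a3 had 174 TPM, Col6a2 144 TPM, Col1a2 114 TPM and Col5a1, another type V chain, 65.6 TPM. These 10 genes held 89.6% of the summed collagen TPM, and with Col18a1 (61.7 TPM), Col6a3 (60.2 TPM), Col5a2 (54.2 TPM) and Col14a1 (45.8 TPM) the share was 97.6%. Levels of neighbours in this order overlapped between libraries, for instance Col4a1 at 322 to 808 TPM with Col3a1 at 237 to 875 TPM. Col9a2 and Col10a1 were below a mean of 0.1 CPM (reads scaled to library size) and were not tested, which left 38 of the 40 collagens in every test.

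**Figure D1:**
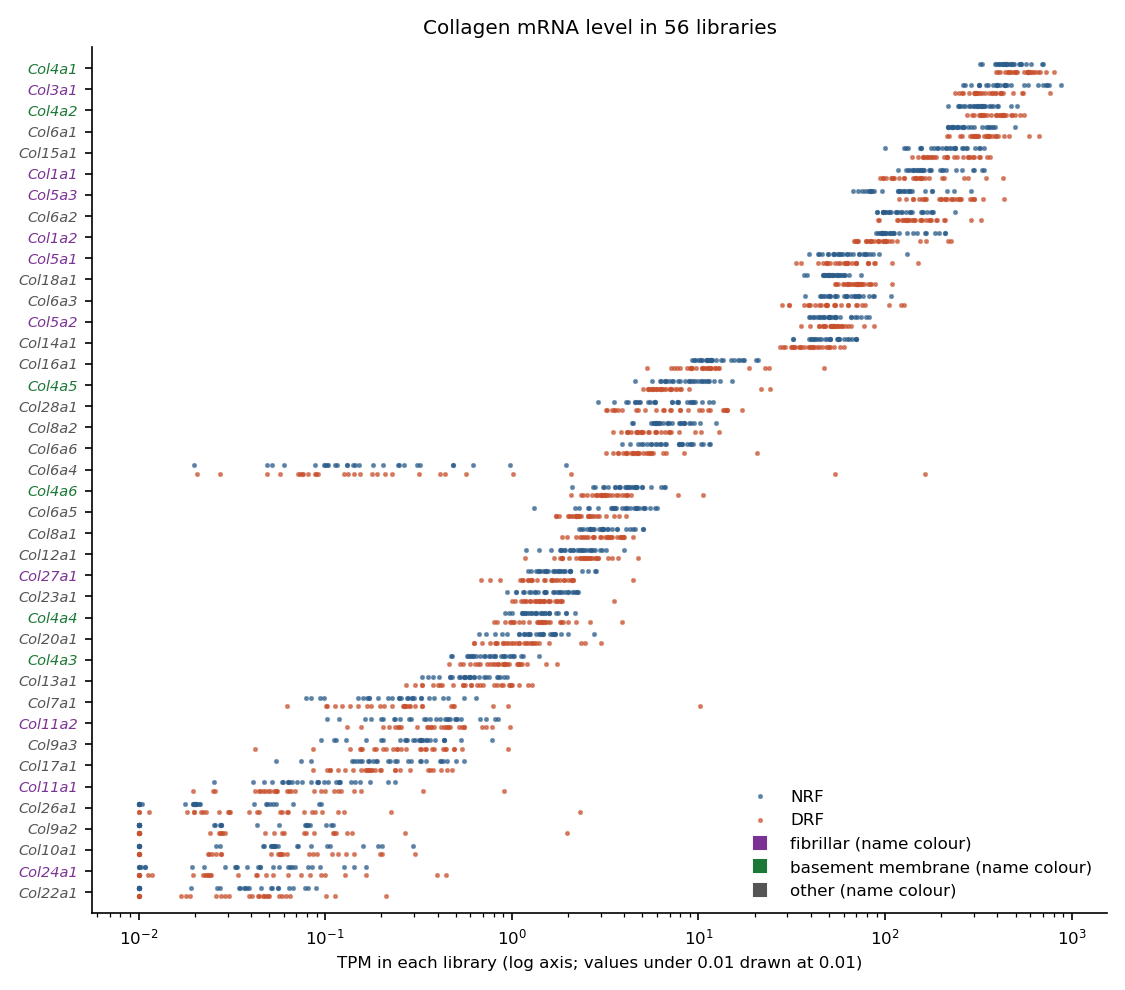
Level of each of the 40 collagen genes in the 56 libraries, in TPM on a log axis, with genes in order of mean level, points coloured by regimen and names by class. Col4a1, Col3a1 and Col4a2 have the highest means, and the sparse chains such as Col22a1 reach 0 in some libraries.

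Chains that build the same trimer differed in how closely their levels kept to a fixed ratio. Col4a1, which pairs with Col4a2, had 1.2 to 1.67 times the TPM of Col4a2 over all 56 libraries, with a median of 1.42. Col1a1 had 1.28 to 1.98 times the TPM of Col1a2, with a median of 1.54, and Col6a1 had 1.78 to 2.54 times that of Col6a2, with a median of 2.23. The ratio of Col6a1 to Col6a3, the long chain of type VI, ran from 3.21 to 12.4 with a median of 5.03, a wider range than for the other pairs. The points of each ratio share their library, so these ranges are descriptions without a test.

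The summed level of the 6 type IV chains was 705, 1002 and 1377 TPM under DRF (lowest, median and highest of 28 libraries) and 558, 793.5 and 1205 TPM under NRF. The 10 fibrillar chains summed to a median of 892 TPM under DRF (634 to 1866) and 934 TPM under NRF (668 to 1862), and the other types to 902 TPM (617 to 1768) and 807 TPM (637 to 1387). The type IV sum rests mainly on Col4a1 and Col4a2 (means of 512 and 360 TPM), as Col4a5 came next at 8.27 TPM. The ranges of the regimens overlapped for every class. As shares of all collagen TPM, the median of the fibrillar chains was 33.1% under DRF and 37.2% under NRF, that of type IV was 34.4% and 30.8%, and that of the other types 32.4% and 31.5%. Under DRF the basement membrane class thus had the highest median share (range 20.3% to 38.7%, against 30.3% to 42.1% for the fibrillar class). Under NRF the fibrillar class had it (31.3% to 47.4%, against 21.1% to 36.4%). These ranges overlapped and the order was not tested. It also changed within the day. Under DRF the mean fibrillar share was above that of type IV at ZT0, ZT8 and ZT12 (35.5% against 31.6% at ZT12) and below it at the other time points. Under NRF it was below only at ZT16 (33.6% against 34.2%).

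**Figure D2:**
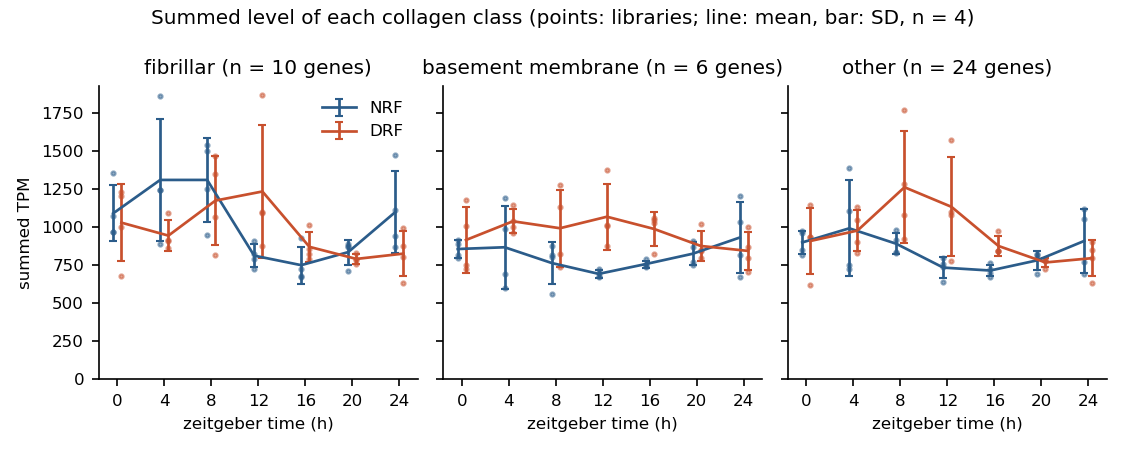
Summed TPM of the fibrillar, basement membrane and other collagen genes by zeitgeber time (h) under NRF and DRF, with each library as a point, the group mean (n = 4) as a line and bars of 1 SD. The basement membrane sum has a median of 1002 TPM under DRF and 793.5 TPM under NRF, and the ranges overlap.

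The second comparison asked whether daytime feeding moved the average level over the day. Of the 38 collagens tested, 6 were higher under DRF (15.8%) and 8 were lower (21.1%) in limma with Benjamini-Hochberg adjustment at 0.05, against 15.4% and 14.3% of all 19746 genes, so the share of collagens that rose was near the background. The chains that rose belong to type V (Col5a3), type IV (Col4a1 and Col4a2), type VI (Col6a1 and Col6a2) and type XVIII (Col18a1). Those that fell were Col6a5, Col6a6, Col14a1, Col8a2, Col1a2, Col3a1 and the type IV chains Col4a5 and Col4a6. Among fibrillar chains 1 rose and 2 fell of 10, among type IV chains 2 rose and 2 fell of 6, and among the others 3 rose and 4 fell of 22. The median log2 difference (DRF minus NRF, on the log2(CPM + 1) scale) was -0.03 for the fibrillar chains, 0.11 for type IV, 0.01 for the others and 0.00 for all genes. TPM and CPM are scaled to different library totals, so TPM medians and log2 differences need not match in size. Without the 2 libraries that stood apart, 8 collagens were higher and 13 lower, against 19.4% and 19.4% of all genes, the added ones being Col15a1 and Col28a1 upward and Col1a1, Col11a1, Col27a1, Col20a1 and Col23a1 downward. By class, 1 fibrillar chain was then higher and 5 lower, 2 type IV chains higher and 2 lower, and 5 others higher and 6 lower.

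Col5a3, a type V chain with a restricted tissue distribution, rose most. Its level was 118, 212 and 432 TPM under DRF (lowest, median, highest of 28) and 67.2, 120 and 288 TPM under NRF. The lowest DRF value, from DRF replicate 1 at ZT8, which stood apart, lay just under the NRF median. The next lowest, 129 TPM, lay above that median, and the regimens overlapped over the day as a whole. The log2 difference was 0.92 ± 0.12 (SE), a 1.89-fold rise, with a limma adjusted p of 4.61e-08, and DRF was higher at 7 of 7 time points. This difference was at the 99.7th percentile of all genes tested. At ZT16 the DRF libraries had 287, 243, 227 and 336 TPM and the NRF libraries 81.3, 85.5, 74.9 and 84.1 TPM, which did not overlap, and the log2 difference was 1.73 ± 0.32 (adjusted p = 1.90e-04).

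The other type V chains did not share this rise. Col5a1 had a median of 62.0 TPM under DRF and 60.9 TPM under NRF, with a log2 difference of 0.11 ± 0.07 (limma adjusted p = 0.279). Col5a2 had medians of 52.7 and 50.6 TPM and a difference of 0.06 ± 0.06 (adjusted p = 0.504). The log2 ratio of Col5a1 to Col5a3 was 0.84 lower under DRF than under NRF, and lower at 7 of 7 time points, with an SD over 28 libraries of 0.53 under DRF and 0.34 under NRF.

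Col18a1 encodes the multiplexin whose C-terminal fragment is endostatin, and it had the smallest adjusted p of the collagens. Its level was 54.0, 70.5 and 109.5 TPM under DRF and 36.6, 51.9 and 74.3 TPM under NRF. The highest DRF value came from DRF replicate 1 at ZT8, which stood apart. The lowest DRF library was above the NRF median, while the upper NRF libraries overlapped the lower DRF ones. The log2 difference was 0.45 ± 0.05 (limma adjusted p = 1.74e-10), and it passed the test at 6 of 7 single time points, all but ZT4.

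Col6a1 and Col6a2, the short chains of type VI, rose by similar amounts. Col6a1 had 215, 344 and 665 TPM under DRF and 216, 261 and 499 TPM under NRF, and its log2 difference was 0.35 ± 0.07 (limma adjusted p = 1.53e-04). Col6a2 had 91.8, 143.5 and 326 TPM under DRF and 90.2, 119.5 and 237 TPM under NRF, with a difference of 0.34 ± 0.08 (adjusted p = 4.90e-04). Both ranges overlapped almost fully at their lower ends, and both highest DRF values came from DRF replicate 1 at ZT8, which stood apart. Col6a3, which completes the usual type VI trimer, had medians of 48.9 and 61.8 TPM and a difference of -0.10 ± 0.08 (adjusted p = 0.414), and the log2 ratio of Col6a1 to Col6a3 was 0.49 higher under DRF.

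Among the basement membrane chains, Col4a2 had 276, 399 and 553 TPM under DRF and 216, 319 and 507 TPM under NRF, and Col4a1 had 395, 577.5 and 808 TPM under DRF and 322, 447 and 702 TPM under NRF. The log2 differences were 0.33 ± 0.07 for Col4a2 (limma adjusted p = 2.09e-04) and 0.27 ± 0.07 for Col4a1 (adjusted p = 0.00250), and their log2 ratio differed by 0.05 between regimens. Of the 4 minor type IV chains, Col4a5 and Col4a6 fell: Col4a5 had a median of 6.32 TPM under DRF and 8.89 TPM under NRF (-0.28 ± 0.10, adjusted p = 0.0189), and Col4a6 had 3.16 and 4.19 TPM (-0.25 ± 0.09, adjusted p = 0.0317). These chains form the α5 and α6 network of basement membranes. Col4a3 and Col4a4, which form a network with Col4a5 in kidney and other specialised basement membranes, had medians of 0.897 and 1.44 TPM under DRF and 0.781 and 1.35 TPM under NRF, and their differences of 0.15 ± 0.07 and 0.06 ± 0.07 did not pass (adjusted p = 0.0854 and 0.536). Col4a3 shares 5.65% of its exon length with the antisense gene C430014B12Rik, and reads from that stretch cannot be told apart. The log2 ratio of Col4a1 to Col4a5 was 0.50 higher under DRF.

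Col6a5, a type VI chain that can take the place of Col6a3, fell most. Its level was 1.72, 2.30 and 4.09 TPM under DRF and 1.31, 4.08 and 5.97 TPM under NRF, and the NRF median lay just under the highest DRF value. The log2 difference was -0.61 ± 0.09 (limma adjusted p = 7.39e-07), and DRF was lower at 7 of 7 time points. Col6a6, a neighbouring chain of the same kind on chromosome 9, had medians of 4.67 TPM under DRF and 7.30 TPM under NRF, with a difference of -0.47 ± 0.09 (adjusted p = 3.26e-05). Col14a1, a fibril-associated collagen, had 27.2, 39.6 and 60.0 TPM under DRF and 32.0, 50.8 and 70.3 TPM under NRF, with a difference of -0.33 ± 0.07 (adjusted p = 1.70e-04).

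Col3a1 and Col1a2 were the fibrillar chains that fell. Col3a1 had 237, 338 and 769 TPM under DRF and 261, 425 and 875 TPM under NRF, and the log2 difference was -0.26 ± 0.08 (limma adjusted p = 0.00867). Col1a2 had 68.1, 92.05 and 226 TPM under DRF, the highest in DRF replicate 1 at ZT8, which stood apart. Under NRF it had 89.1, 107 and 209 TPM, with a difference of -0.26 ± 0.09 (adjusted p = 0.0169). Its partner Col1a1 had medians of 147 and 161 TPM and a difference of -0.20 ± 0.09 that did not pass (adjusted p = 0.0948). Col8a2, a short-chain collagen of vessel walls, had a difference of -0.27 ± 0.08 (adjusted p = 0.00831). The calls of Col1a2 and Col3a1 were each lost in 3 of 14 alternative fits, that of Col4a6 in 4, that of Col4a5 in 2, and those of Col4a1 and Col8a2 in 1 each.

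Among the 24 collagens that did not pass, log2 differences ran from -0.20 (Col1a1) to 0.47 (Col6a4). The value of Col6a4 was 0.47 ± 0.39 with and -0.05 ± 0.14 without the 2 libraries that stood apart. Col7a1, which anchors basement membranes to the stroma, had 0.20 ± 0.16 with them (adjusted p = 0.376) and 0.01 ± 0.08 without them. Col15a1 had 0.17 ± 0.09 with them (adjusted p = 0.154) and 0.23 ± 0.08 without them, which passed (adjusted p = 0.0236).

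Markers of cell types were counted in the same fits, against 15.4% higher and 14.3% lower of all genes. Of 7 fibroblast and progenitor markers (Pdgfra, Dpp4 and the like), 5 fell and 0 rose, and their summed level had a median of 1140 TPM under DRF (914 to 1740) and 1400 TPM under NRF (1130 to 1820). Of 6 mesothelial markers 3 fell, of 5 macrophage markers 4 fell, of 5 endothelial markers 1 fell and of 5 mural cell markers 0 passed, while all 3 blood markers rose. Of 8 adipocyte markers 1 rose and 2 fell, and their sums had medians of 27700 and 27400 TPM. The part of these shifts in the collagen differences was not tested.

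**Figure D3:**
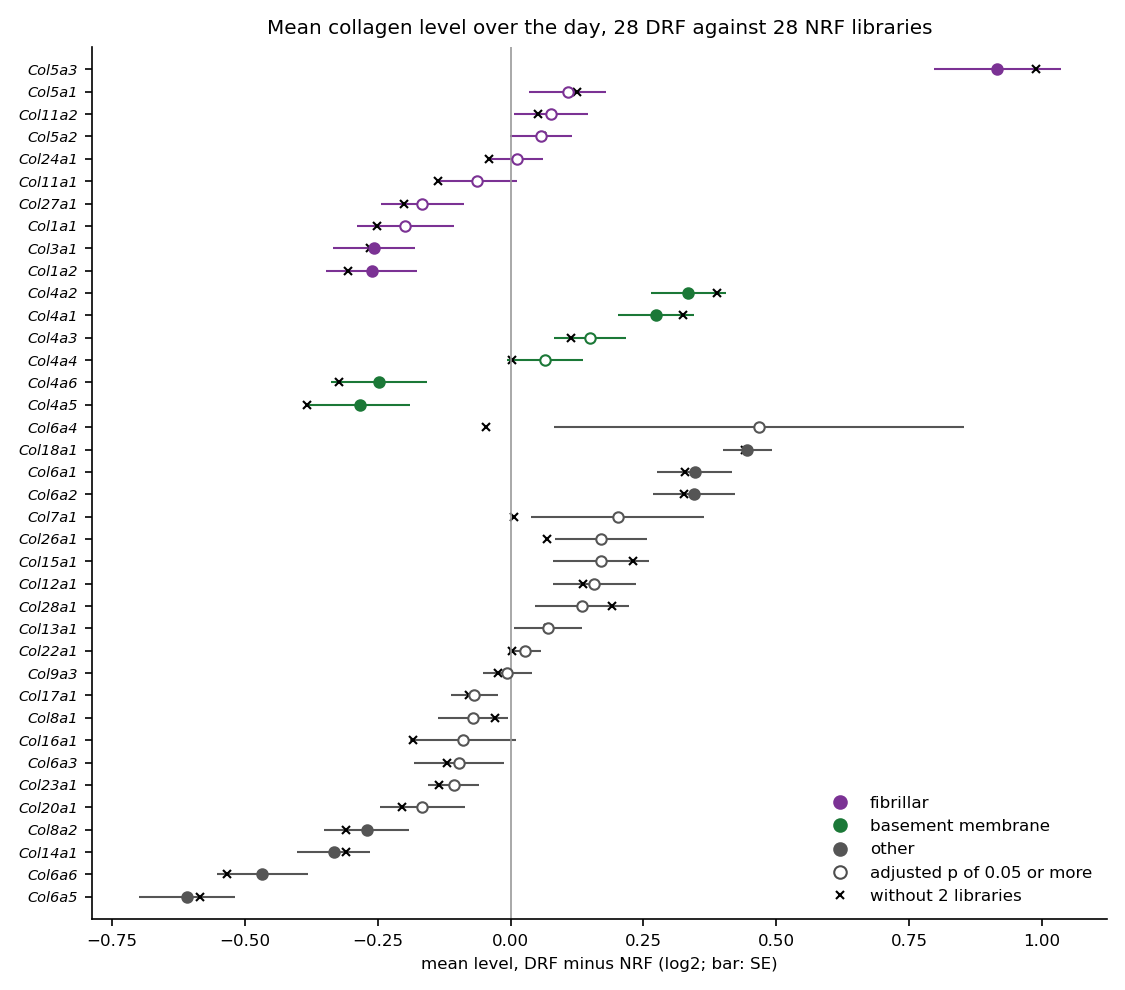
Difference in mean level, DRF minus NRF, of the 38 collagen genes tested, on the log2(CPM + 1) scale with bars of 1 SE, grouped by class. Filled points passed limma at an adjusted p of 0.05, crosses give the value without the 2 libraries that stood apart, and Col5a3 at 0.92 and Col6a5 at -0.61 are the extremes among the filled points.

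The third comparison asked which collagens cycled over 24 h. By a re-implementation of the kind of rhythm test the study used (JTK_CYCLE and Lomb-Scargle combined, adjusted p under 0.05), 11 of 38 collagens were rhythmic under NRF (28.9%) against 34.4% of all genes. Under DRF 8 were rhythmic (21.1%) against 20.3%, and 5 were rhythmic under both regimens (13.2%) against 13.0%, so by this test the shares under DRF and under both were close to the background. A limma F test called 21 collagens under NRF and 14 under DRF, against 44.6% and 35.9% of all genes, and leaving out the libraries of 1 replicate number gave 5 to 12 under NRF and 2 to 6 under DRF, against at most 27.0% and 12.6% of all genes. Of the 10 fibrillar chains 5 were rhythmic under NRF, 3 under DRF and 3 under both, and of the 6 type IV chains 2 were rhythmic under NRF (Col4a4 and Col4a5) and 0 under DRF. Of the 22 others 4 were rhythmic under NRF, 5 under DRF and 2 under both. Leaving out the 2 libraries that stood apart gave 9 rhythmic collagens under DRF, against 25.7% of all genes.

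The collagens rhythmic under both regimens were Col3a1, Col1a1, Col5a1, Col28a1 and Col23a1. Their phase shifts, the absolute difference between the fitted peak times, ran from 0.21 to 7.76 h, while the median over all 2571 genes rhythmic under both was 10.2 h. Shifts from 8 h upward, called phase-inverted in the study, were found in 0 of 5 collagens against 79.9% of those genes. The largest, 7.76 ± 1.06 h (SE) for Col5a1, was within 1 SE of this limit and cannot be told from an inverted one. Shifts of at most 4 h, called phase-locked, were found in 3 of 5 against 5.48%. The shift passed the Wald test of the cosine model in 3 of 5 against 97.4%. This set depended on the processing: it held 3 collagens without ZT24 and 1 to 4 without a replicate number. The set over all genes also shrank, from 2571 to 1956 without ZT24 and to 1164 to 1465 without a replicate number. The collagen shifts that passed numbered 1 with scaling to total reads, 1 without ZT24 and 0 to 1 without a replicate number. Over all genes, 96.8% to 98.1% of shifts passed in these settings. Without the 2 libraries that stood apart, the same 5 collagens were rhythmic under both and the same 3 shifts passed, against 96.8% over all genes. Col28a1 was rhythmic under both regimens in all of these settings, and the shift of Col5a1 passed wherever any did.

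Col28a1, a von Willebrand factor A domain collagen best known from peripheral nerve, kept its peak. The fitted peak was at ZT18.2 ± 0.55 h (SE) under NRF and ZT18.4 ± 0.34 h under DRF, a shift of 0.21 ± 0.65 h (Wald adjusted p = 0.745). At ZT8 the NRF libraries had 5.85, 2.9, 4.57 and 4.85 TPM and the DRF libraries 3.23, 5.15, 3.45 and 3.54 TPM, and at ZT20 they had 11.3, 8.96, 9.18 and 7.76 TPM and 14.2, 13.5, 17.0 and 13.6 TPM. All libraries of ZT20 were above all of ZT8 in both regimens, and at ZT20 every DRF library exceeded every NRF library (log2 difference 0.65 ± 0.22, limma adjusted p = 0.0316). The fitted peak-to-trough fold was 2.24 under NRF and 3.73 under DRF, but the difference in amplitude did not pass after adjustment (Wald adjusted p = 0.152).

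Col5a1 moved its peak most among the 5, from ZT1.74 ± 0.82 h under NRF to ZT9.50 ± 0.67 h under DRF, a shift of 7.76 ± 1.06 h (Wald adjusted p = 2.70e-09). Its NRF libraries had 79.9, 78.1, 64.5 and 72.9 TPM at ZT0 and 44.4, 39.0, 52.7 and 43.8 TPM at ZT12. Its DRF libraries had 70.2, 61.8, 35.3 and 56.0 TPM at ZT0 and 80.9, 151, 87.3 and 69.5 TPM at ZT12. The order of the time points was thus opposite in the 2 regimens, without overlap under NRF and with a small one under DRF.

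Col23a1, a transmembrane collagen, peaked at ZT10.7 ± 0.70 h under NRF and ZT5.42 ± 0.85 h under DRF, a shift of 5.23 ± 1.10 h (Wald adjusted p = 1.98e-05). Col3a1 peaked at ZT4.47 ± 0.50 h under NRF and ZT7.15 ± 0.98 h under DRF, a shift of 2.68 ± 1.10 h (adjusted p = 0.0189). Col1a1 peaked at ZT6.08 ± 0.88 h and ZT7.55 ± 0.69 h, a shift of 1.46 ± 1.12 h that did not pass (adjusted p = 0.20). With sampling every 4 h and errors near 1 h, shifts of this size are close to the resolution of the design.

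**Figure D4:**
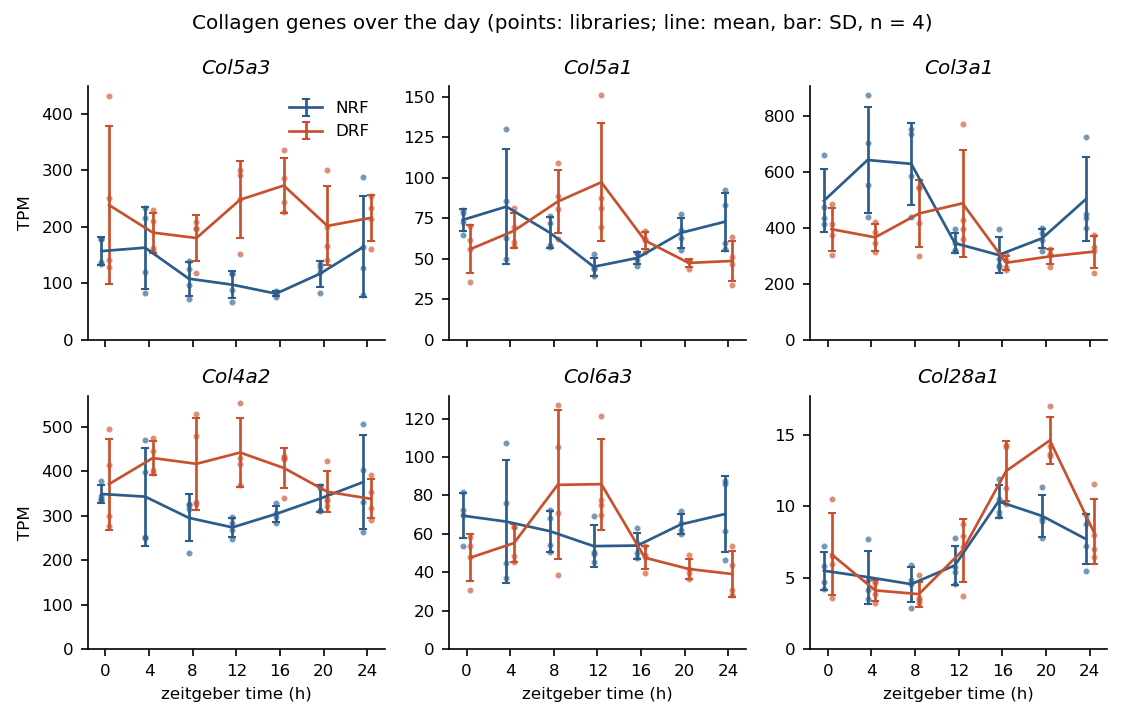
Time courses of Col5a3, Col5a1, Col3a1, Col4a2, Col6a3 and Col28a1 in TPM against zeitgeber time (h) under NRF and DRF, with each library as a point, the group mean (n = 4) as a line and bars of 1 SD. Col28a1 is highest at ZT16 or ZT20 under both regimens, while Col5a1 peaks near ZT1.74 under NRF and ZT9.50 under DRF.

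A rhythm past the threshold under one regimen only is not shown to differ, so the difference in rhythm was tested itself by the interaction of regimen and the 24-h cosine and sine terms in limma. It passed for 13 of 38 collagens (34.2%) against 46.6% of all genes: 5 of 10 fibrillar chains, 1 of 6 type IV chains (Col4a2) and 7 of 22 others. Without the 2 libraries that stood apart it passed for 18 collagens, against 52.4% of all genes, 4 of them type IV chains, and Col12a1 was then no longer called (adjusted p = 0.0637). The smallest adjusted p was that of Col5a1 (3.22e-07). Col6a3 followed (2.31e-05) with a fitted log2 amplitude of 0.18 ± 0.08 under NRF and 0.50 ± 0.09 under DRF, where it peaked at ZT9.41 ± 0.68 h. Its difference in amplitude alone did not pass after adjustment (Wald adjusted p = 0.171).

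Col6a3 gave 53.5, 30.7, 28.1 and 44.0 TPM at ZT24 under DRF and 75.0, 121, 69.7 and 77.7 TPM at ZT12, with no overlap between these time points. Under NRF it had 87.4, 46.3, 61.5 and 86.0 TPM at ZT24 and 49.3, 45.2, 69.3 and 50.5 TPM at ZT12, which overlapped. Col15a1, the multiplexin of the zone under the basement membrane (interaction adjusted p = 2.77e-04), had an amplitude of 0.31 ± 0.09 under NRF and 0.44 ± 0.10 under DRF, with fitted peaks at ZT0.93 ± 1.2 h and ZT7.83 ± 0.78 h, and it passed the rhythm test under DRF only. Col23a1 had an interaction adjusted p of 5.72e-04. Col27a1, a fibrillar chain known from cartilage, had one of 0.00390 and a level of 2.84, 1.92, 2.39 and 2.57 TPM under NRF and 1.48, 1.27, 1.5 and 1.36 TPM under DRF at ZT16, which did not overlap. Col5a3 was rhythmic under NRF (peak at ZT1.72 ± 1.08 h, amplitude 0.45 ± 0.12) and had an amplitude of 0.21 ± 0.13 under DRF, with an interaction adjusted p of 0.00822. The difference in amplitude alone did not pass for Col15a1 or Col5a3 (Wald adjusted p = 0.770 and 0.594).

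The fourth comparison placed the regimen difference within the day, by limma on the 14 group means. ZT12, the end of the light phase, held the most calls: 9 collagens were higher (23.7%) and 3 lower (7.89%) under DRF, against 12.0% and 9.98% of all genes. Those higher were Col5a1, Col5a2, Col5a3, Col4a1, Col4a2, Col6a1, Col6a2, Col6a3 and Col18a1, which include every chain of type V and the main chains of types IV and VI. Those lower were Col6a5, Col6a6 and Col23a1. At ZT12 the DRF libraries of Col5a3 had 300.4, 291, 249.5 and 151 TPM and the NRF libraries 67.1, 87.8, 117 and 117 TPM, without overlap (1.29 ± 0.32, adjusted p = 0.00266). For Col5a1 the difference was 1.00 ± 0.19 (adjusted p = 1.38e-04), also without overlap.

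Col6a2 had 173, 289, 186 and 132 TPM under DRF at ZT12 and 102, 90.2, 117 and 97.9 TPM under NRF (0.84 ± 0.21, limma adjusted p = 0.00279). Col4a2 had 429, 553, 416 and 370 TPM and 247, 268, 298 and 283 TPM (0.63 ± 0.19, adjusted p = 0.0110), and Col4a1 differed by 0.54 ± 0.19 (adjusted p = 0.0337). The regimens did not overlap for any of these 3 chains. Replicate 2 of DRF at ZT12 was the highest of its group for all of Col5a1, Col6a2 and Col4a2. Without the libraries of replicate 2, the calls at ZT12 were 3 higher (Col5a1, Col5a3 and Col18a1) and 2 lower, against 6.31% and 5.56% of all genes, and without replicate 1 they were 5 higher and 4 lower, against 8.18% and 6.45%. Col6a5 had 2.30, 2.20, 2.20 and 2.13 TPM under DRF and 4.05, 4.51, 5.97 and 5.82 TPM under NRF, again without overlap (-1.12 ± 0.24, adjusted p = 4.47e-04).

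The other time points held fewer collagens. At ZT0 the test called 1 higher (Col18a1) and 0 lower, against 7.38% and 7.32% of all genes. At ZT4 it called 0 higher and 3 lower (Col3a1, Col4a4 and Col4a5), against 14.3% and 12.9%, and Col3a1 had 386, 420.0, 344 and 311 TPM under DRF and 552, 439, 703 and 875 TPM under NRF there, without overlap (-0.68 ± 0.20, adjusted p = 0.00890). At ZT8 it called 2 higher (Col18a1 and Col12a1) and 3 lower (Col6a5, Col14a1 and Col8a1), against 12.5% and 10.1%.

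At ZT16 it called 2 higher (Col18a1 and Col5a3) and 1 lower (Col27a1), against 7.05% and 6.99%. At ZT20 it called 2 higher (Col18a1 and Col28a1) and 0 lower, against 9.24% and 9.26%, and at ZT24 1 higher (Col18a1) and 1 lower (Col6a3, -0.73 ± 0.23), against 8.60% and 7.62%. Col18a1 was thus the collagen called most often, and the type I chain Col1a1 was called at no time point.

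Without the libraries that stood apart, more collagens passed at 7 of 7 time points, and so did more of all genes. The counts were then 1 higher and 1 lower at ZT0 (8.11% and 7.58% of all genes), 1 and 5 at ZT4 (16.6% and 16.1%), 4 and 5 at ZT8 (14.9% and 11.7%) and 9 and 5 at ZT12 (14.3% and 12.2%). They were 3 and 2 at ZT16 (9.87% and 9.43%), 3 and 2 at ZT20 (11.3% and 11.2%) and 1 and 2 at ZT24 (10.8% and 10.2%). Col5a3 was then also called at ZT8 and ZT20, and Col3a1 at ZT24, while the call of Col12a1 at ZT8 was lost (adjusted p = 0.0525).

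**Figure D5:**
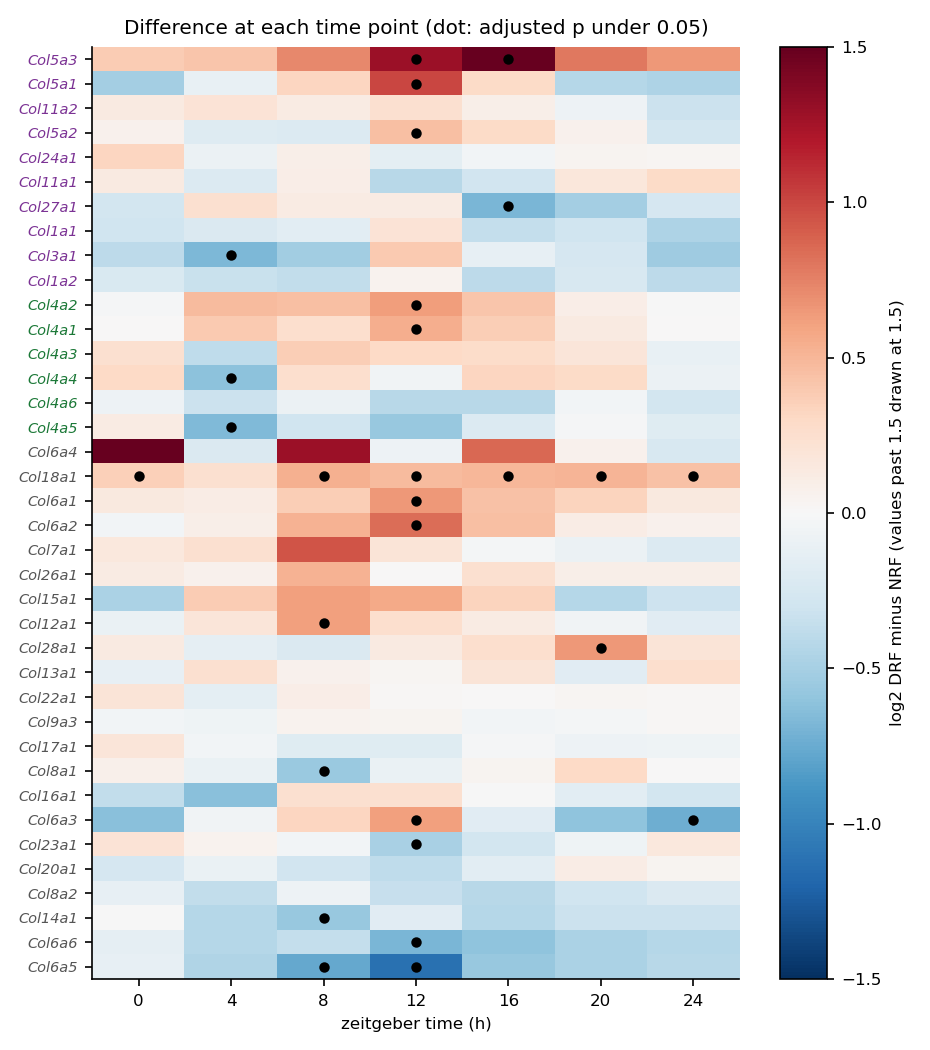
Difference at each zeitgeber time, DRF minus NRF on the log2(CPM + 1) scale, of the collagen genes by class, as a colour scale with dots where limma passed at an adjusted p of 0.05. The ZT12 column holds 9 collagens that were higher and 3 that were lower.

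The genes that modify, trim, bind and receive collagens were counted in the same fits, against the same backgrounds of 15.4% higher, 14.3% lower and 46.6% differing in rhythm. Of 20 genes for chain modification and folding, 4 were higher, 6 lower and 10 differed in rhythm. Serpinh1, the collagen chaperone HSP47, had a median of 1294 TPM under DRF and 1212 TPM under NRF, with a log2 difference of 0.33 ± 0.09 (limma adjusted p = 0.00570). Its rhythm difference had an adjusted p of 5.09e-13, and the fitted peak moved from ZT21.2 ± 0.40 h to ZT9.68 ± 0.67 h, a shift of 11.5 ± 0.78 h. Tmem38b, the TRIC-B channel of the endoplasmic reticulum needed for collagen folding, rose by 0.51 ± 0.07 (interaction adjusted p = 8.75e-10, shift 9.88 ± 0.97 h). Plod2, a lysyl hydroxylase, and P3h2, a prolyl 3-hydroxylase, had differences of -0.56 ± 0.15 and -0.26 ± 0.06.

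Of 12 genes for extracellular processing and crosslinking, 1 rose, 6 fell and 5 differed in rhythm. Lox, the lysyl oxidase that crosslinks fibrils, was the gene that rose, with medians of 57.2 TPM under DRF and 42.8 TPM under NRF (0.48 ± 0.10). Pcolce2, an enhancer of procollagen cleavage, and Adamts14, an N-propeptidase, had differences of -0.39 ± 0.07 and -0.23 ± 0.07. The smallest interaction adjusted p values were those of Loxl2 (0.00111) and Adamts2 (0.00304). Of 9 fibril-binding proteins, 1 rose, 3 fell and 2 differed in rhythm: Sparc rose by 0.37 ± 0.08 and Lum (lumican) and Thbs2 had differences of -0.61 ± 0.09 and -0.50 ± 0.11, and the interaction passed for Thbs2 (8.49e-05) and Thbs1 (2.84e-04).

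Of 10 basement membrane partners, 5 rose, 1 fell and 3 differed in rhythm. Nid2 (nidogen 2) rose by 0.37 ± 0.07 and Hspg2 (perlecan) by 0.33 ± 0.07, and Lamb1 had a difference of -0.15 ± 0.05. The laminin chains Lamb1 and Lamc1 had the smallest interaction adjusted p values, 2.9e-08 and 4.01e-08. Of 9 receptors, 1 rose (Itgb1, 0.17 ± 0.03), 3 fell and 4 differed in rhythm. The collagen-binding Itga11 and Ddr2 had differences of -0.37 ± 0.10 and -0.33 ± 0.05, and the interaction was smallest for Ddr1 (5.01e-05) and Mrc2 (8.71e-04). Over the 60 partner genes 12 were higher, 19 lower and 24 differed in rhythm.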

How the data were processed

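Visceral adipose tissue RNA was sequenced in 56 libraries, 4 per regimen and time point. Per the submitters' processing notes, HISAT2 2.0.5, featureCounts 1.5.0-p3 and build mm10 were used; the library kit does not mark strand, so reads of overlapping genes cannot be told apart. The deposited values, labelled TPM, are a score: per library, they are proportional to log2(1 + normalized count) divided by exon length, as tested on the values. Whole reads were recovered from them with GENCODE exon lengths: 99.9909% of 1261970 values up to 10000 reads came out whole within 0.02. Lengths were taken from the values for 904 genes (Col11a2 and Col17a1 among them), and 3 genes were left out. TPM was recomputed from the reads for levels. Tests used log2(CPM + 1), with CPM on the library sizes implied by the values, for genes with a mean of at least 0.1 CPM. Depth was 31129308 to 41199164 reads per library, and the least abundant collagens tested rest on medians of under 10 reads.

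limma 3.58.1 (R 4.3.3) fitted a mean, cosine and sine (24 h) per regimen to all libraries, and separately 14 group means, with an intensity trend and Benjamini-Hochberg adjustment over 19746 genes at 0.05 (two-sided). Rhythms were tested per regimen by JTK_CYCLE and Lomb-Scargle joined by Fisher's method, and phases by a cosine model with a Wald test. Other computations used Python 3.11.15 with numpy 2.4.6, pandas 2.3.3, scipy 1.17.1 and matplotlib 3.10.9. Scripts were tested on simulated data. Promoter sequences came from RefSeq. All collagens are accounted for by class. Named with values are the 10 of highest mean TPM, the 5 largest rises and falls called, the 5 smallest interaction p, those rhythmic under both regimens and trimer partners, and from each partner list at most 2 called per direction and the 2 smallest interaction p. Other collagens named, such as Col5a2, Col4a6, Col6a4 and the calls at single time points, were chosen after their values were seen. The collagen list, classes, partner lists and marker lists were chosen with earlier results of these data known. Alternatives were scaling to total reads, pseudocount, filter, voom, the deposited values, group means, without ZT24, a replicate block, and leaving out libraries.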

Additional observations from a re-analysis of the deposited data

Results flagged for a closer look

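Among 140 groups of 4 libraries (10 collagen levels and class sums over 14 groups), 17 had a library far from the other 3, by Dixon's ratio of gap to range at the 95% level, where chance alone flags about 1 in 20. For Col6a4 it was the highest library in 4 groups: DRF replicate 4 at ZT0 (0.998), DRF replicate 1 at ZT8 (0.999), NRF replicate 1 at ZT0 (0.883) and NRF replicate 1 at ZT12 (0.943). For Col4a2 it was the lowest library at DRF ZT16 (replicate 3, 0.937) and NRF ZT8 (replicate 2, 0.893) and the highest at DRF ZT20 (replicate 3, 0.857). Col3a1 had its highest library apart at DRF ZT12 (replicate 2, 0.833) and NRF ZT24 (replicate 1, 0.849), and Col6a3 at DRF ZT12 (replicate 2, 0.844). Col5a1 at DRF ZT20 (lowest, replicate 2, 0.965), Col5a3 at DRF ZT8 (lowest, replicate 1, 0.856) and Col28a1 at DRF ZT8 (highest, replicate 2, 0.839) were the other single genes. Of the class sums, the fibrillar sum at NRF ZT20 (lowest, 0.904), the basement membrane sum at DRF ZT16 (lowest, 0.863) and the sum of other types at DRF ZT16 (highest, 0.972) and DRF ZT20 (lowest, 0.944) had a library apart. Col6a4 was chosen after its values were seen, so its flags in 4 groups cannot be set against the rate of 1 in 20.

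The rhythm differed between the regimens, by the limma interaction test, for 13 of 38 collagens (34.2%), against 46.6% of all genes. The adjusted p was 3.22e-07 for Col5a1, 2.31e-05 for Col6a3, 2.77e-04 for Col15a1, 5.72e-04 for Col23a1, 0.00390 for Col27a1, 0.00461 for Col6a2 and 0.00799 for Col5a2. It was 0.00822 for Col5a3, 0.00862 for Col3a1, 0.0135 for Col8a1, 0.0192 for Col4a2, 0.0361 for Col12a1 and 0.0403 for Col6a5. Without the 2 libraries that stood apart, that of Col12a1 was 0.0637 and the other 12 still passed.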

How the results depend on the processing

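No called difference of a collagen changed its sign in any alternative run, for the mean level or the single time points. No called phase shift did so either, but each was compared only where its gene stayed rhythmic under both regimens. For Col3a1 and Col23a1 that was only the fit without DRF replicate 1 at ZT8 and DRF replicate 4 at ZT0. For the mean level, 182 of 196 values of the 14 called collagens kept their side of the threshold and 14 lost it, and Col5a3, Col18a1, Col6a1, Col6a2, Col4a2, Col6a5, Col6a6 and Col14a1 kept it in all 14 alternatives. The count of lower collagens, 8 in the fit reported, was 13 without DRF replicate 1 at ZT8 and DRF replicate 4 at ZT0, and 4 to 8 when the libraries of 1 replicate number were left out. The count of higher collagens was 5 to 7 under the latter. Rhythmic collagens under NRF (11) numbered 21 by a limma F test and 5 to 12 without a replicate number, and under DRF (8) they numbered 14 by the F test and 2 to 6 without a replicate number. Collagens rhythmic under both (5) numbered 3 without ZT24 and 1 to 4 without a replicate number. Over all genes this set held 2571 in the fit reported, 1956 without ZT24 and 1164 to 1465 without a replicate number. Phase shifts past the threshold (3) numbered 1 with scaling to total reads, 1 without ZT24 and 0 to 1 without a replicate number. The interaction count (13) ran from 10 to 18. At single time points, 44 of 196 values of the called differences lost the threshold and 152 kept it. These calls were 17 higher and 11 lower, the latter 22 without the 2 DRF libraries. Leaving out a replicate number gave 9 to 16 higher and 6 to 15 lower. The share of all genes called also changed with the setting, for instance from 12.0% to 6.31% higher at ZT12 without replicate 2. Most counts in this section have no such share beside them, so their changes are not read as a result about collagens. The cause of these changes was not tested.

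The labels' replicate numbers were not taken to pair the libraries. Deviations from group means correlated with a mean r of 0.04 for 364 pairs of equal number and -0.01 for 1092 pairs of unequal number. The correlation was over 0.1 in 37.6% of the former and 29.4% of the latter. With a replicate block the counts were 6 higher and 10 lower for the mean level, 13 for the interaction, and 17 higher and 14 lower at single time points. The shares of all genes with this block are not given, so these counts are not read as a result about collagens. Depth limits the sparse collagens such as Col22a1, Col24a1 and Col26a1, with medians of under 10 reads.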
